A study of Mus musculus with 4 samples.

Results

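The transcripts that differ after 120 minutes of TGF-beta2 were read by setting 1 array of stimulated cells over 1 array of untreated cells. Of 45037 probe sets that are not controls, the 34945 paired with a single gene symbol entered the comparison, and 20064 of them, for 11744 genes, were bright enough to be used. The 2 arrays belong to a series of 4, with 1 array per group. The groups were TGF-beta2 alone for 120 minutes, SB431542 for 60 minutes before the same stimulation, 5Z-7-Oxozeaenol (oxozeaenol below) for 60 minutes before it, and untreated cells. Every array came from palatal mesenchymal cells, which form the connective tissue of the embryonic palate, cultured from outbred wild-type mouse embryos at E14.0. SB431542 is an inhibitor of type I TGF-beta receptors, and oxozeaenol one of the kinase Tak1. The labels do not say how many embryos or cultures lie behind each array, or the dose of TGF-beta2. With 1 array a side there is no replicate check, so a gene is called higher or lower by size alone, at 2-fold, and no p-value is given.

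TGF-beta ligands bind a type II receptor kinase that activates a type I receptor kinase, which phosphorylates Smad2 and Smad3. These enter the nucleus with Smad4 and switch genes on or off together with partner factors. The same receptors also activate MAP kinases, in part through Tak1, and so reach immediate early genes, which are transcribed within minutes of a stimulus without new protein synthesis. In the palate, TGF-beta signals act in the mesenchyme that forms the shelves and in the epithelium that fuses them.

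Signals are linear intensities on a common scale, and a difference is that of log2(signal + 21.7), TGF-beta2 minus untreated. Across the 11744 genes it had a median of −0.03, and its 5th and 95th percentiles were −0.46 and 0.46. Since that median is under 0, more of all genes lay below 0 than above it. Counts of list members by sign are to be read beside this. With TGF-beta2, 79 genes (0.673%) were higher by the 2-fold rule and 43 (0.366%) were lower. Over single probe sets, 156 of the 20064 (0.778%) were higher and 79 (0.394%) lower, and with no filter 795 (2.28%) and 579 (1.66%) of the 34945. At 1.5-fold, a size rule chosen after seeing the data, 354 genes (3.01%) were higher and 289 (2.46%) lower. Dim genes made up much of both sets. Of the 79 higher genes, 24 read below the filter level of 66.1 in untreated cells, and of the 43 lower genes, 16 had a TGF-beta2 signal under it. Among 3431 genes with a signal of at least 1290 on both arrays, 13 (0.379%) were higher and 3 (0.0874%) lower. The 10 poly-A spike-in probe sets past the filter all read above 0, with a median difference of 0.38 and a range of 0.06 to 0.82, and the 18 hybridization controls had a median of 0.09. What part such shifts have in the gene differences was not tested. All 12 mesenchymal markers passed the filter, with a summed signal of 126439 with TGF-beta2 and 121109 untreated. Macrophage and blood markers were present too, 10 of 12, and are given beside the chemokines. Of 12 epithelial markers 9 passed, with a summed signal of 2255 with TGF-beta2 and 2399 untreated. Their differences ran from −0.86 to 0.96, with a median of −0.12. Of 12 markers each, 3 endothelial, 4 skeletal muscle and 4 neural or glial ones passed. Levels with the inhibitors are set beside the 2 arrays as a description, since any comparison with them shares the TGF-beta2 or the untreated array.

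**Figure D1:**
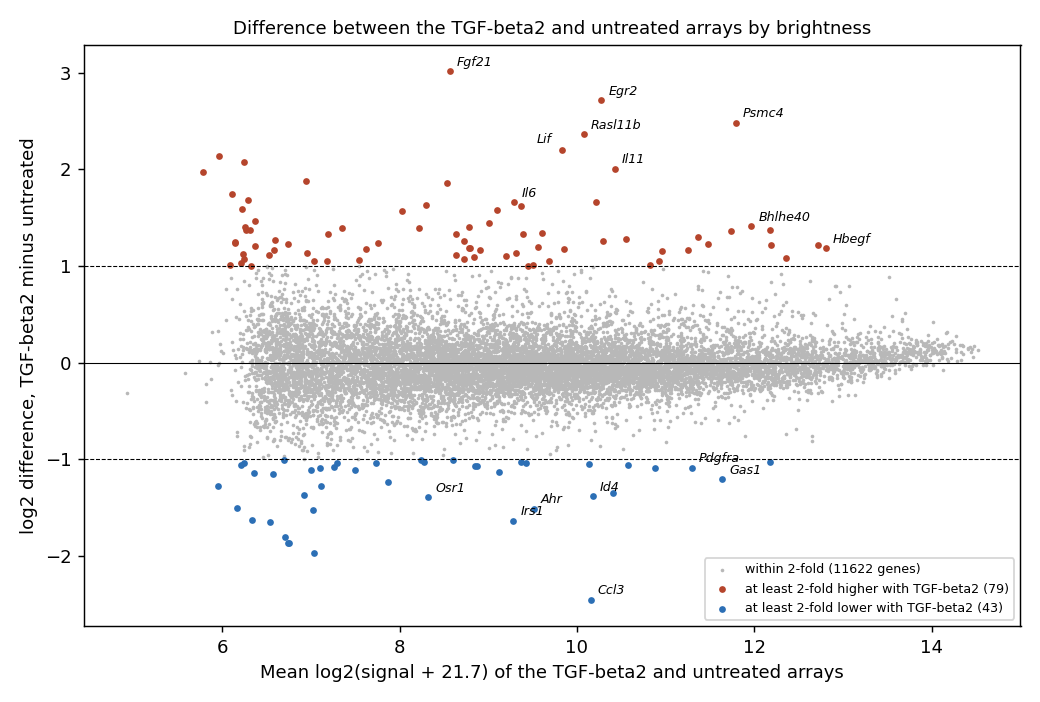
Each point is 1 of 11744 genes, with the mean log2(signal + 21.7) of the TGF-beta2 and untreated arrays on the horizontal axis and the log2 difference, TGF-beta2 minus untreated, on the vertical axis. Dashed lines mark 2-fold. The 79 higher genes (red) and 43 lower genes (blue) lie at all levels, with a crowd of dim genes at the left, while most bright genes lie close to 0.

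The pathway's own ligands, receptors and Smads stayed within 2-fold. None of 12 ligands and latent binding proteins, 11 receptors and 12 Smads and partners passed the 2-fold rule. Their median differences were 0.11, 0.24 and 0.00. Tgfbr1, the type I receptor gene, had 4881 with TGF-beta2 and 3561 untreated (0.45), and Tgfbr2, the type II receptor gene, had 3950 and 4381 (−0.15). Smad2, Smad3 and Smad4 differed by −0.13, −0.17 and −0.04. Tgfb2, the gene of the added ligand, had 1415 with TGF-beta2 and 1452 untreated on its brightest probe set (−0.04). Its other probe sets differed by 0.03, 0.30 and 0.55. The farthest of these genes were Ltbp3, which tethers latent TGF-beta to the matrix, with 3939 against 2039 untreated (0.94), Foxo1, a Smad partner, with 716 against 393 untreated (0.83), and Inhbb, an activin subunit gene, with 305 against 541 untreated (−0.78). The Ltbp3 value came from a probe set that may match several transcripts, and the other Ltbp3 probe sets lay between 0.31 and 0.85. All 3 Foxo1 probe sets lay above 1.5-fold, from 0.76 to 1.27, and those of Inhbb differed in direction.

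Among feedback inhibitors and corepressors of Smads, none of 12 reached 2-fold, with a median of 0.20. The median was 0.02 without probe sets that may match several transcripts and 0.09 over all probe sets of each gene. Smurf1, a ubiquitin ligase for Smads and receptors, had 909 with TGF-beta2 and 487 untreated (0.87). Skil, a Smad corepressor, had 4677 with TGF-beta2 and 2821 untreated (0.72), and Pmepa1, which sequesters Smads, had 10413 and 7599 (0.45). Smad7, which blocks the type I receptor, read 0.35 on its brightest probe set and −0.59 on its other. On their brightest probe sets these genes lay above 0 without passing the size rule, as did 7 of the 12. Of 29 other genes known to be induced by TGF-beta, 7 were at least 2-fold higher and 1, Snai2, lower. In that list 27 of 29 lay above 0, with a median of 0.24. Of 10 genes known to be repressed by TGF-beta, 1, Id4, was lower by 2-fold. In this second list 6 lay below 0 and 4 above, Myc (0.50) and Gadd45a (0.46) among them, with a median of −0.11. Both lists were chosen with earlier results of these data known, so their counts describe these genes and test nothing.

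Immediate early transcription factors were among the most changed transcripts. Egr2, a zinc finger factor, had 3154 with TGF-beta2, 236 with SB431542, 95.2 with oxozeaenol and 461 untreated, a difference of 2.72, and its other probe set differed by 2.17. Egr1, of the same family, had 10257 with TGF-beta2, 5195 with SB431542, 171 with oxozeaenol and 4389 untreated (1.22). Egr3 had 605 with TGF-beta2 and 354 untreated (0.74), so it stayed inside 2-fold. Of 11 AP-1 genes, Junb was the 1 past 2-fold, with 1222 against 468 untreated (1.34), while Fos read 2089 against 1644 untreated (0.34) and Jun 5185 against 4687 untreated (0.15). Of 24 other immediate early genes, 21 lay above 0 and 2 passed 2-fold, namely Csrnp1 (1.11) and Ier2 (1.01), with a median of 0.25. With the larger pseudocount, the median of all values, Csrnp1 (0.99) and Ier2 (0.98) no longer passed. Bhlhe40, a repressor that also belongs to the clock, had 6495 with TGF-beta2 and 2427 untreated (1.41).

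Brakes on MAP kinase signalling had a median of 0.27 over 18 genes, or 0.10 with the filter at the 75th percentile, and 2 of them passed 2-fold. Dusp5, a nuclear phosphatase of ERK, had 927 with TGF-beta2, 333 with SB431542, 113 with oxozeaenol and 296 untreated (1.58). Dusp4, a related phosphatase, had 964 with TGF-beta2 and 470 untreated (1.00), and 0.94 with the larger pseudocount. Errfi1, an inhibitor of the EGF receptor, had 6764 and 3830 (0.82), with its other probe set at 0.63. Not all moved the same way, since Dusp1 had 1063 with TGF-beta2 and 1650 untreated (−0.62).

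Several cytokine genes were higher. In the interleukin-6 family, whose members signal through the shared receptor Il6st, 3 of 10 measured genes were higher and all 3 were ligands. Lif had 1931 with TGF-beta2, 179 with SB431542, 150 with oxozeaenol and 404 untreated (2.20). Il11 had 2736 with TGF-beta2, 265 with SB431542, 105 with oxozeaenol and 663 untreated (2.01). Il6 had 1095 with TGF-beta2, 210 with SB431542, 66.3 with oxozeaenol and 331 untreated (1.66). For each of these the TGF-beta2 array was the highest of the 4 and both inhibitor arrays lay under the untreated one. The ligand gene Clcf1 had 1614 with TGF-beta2 and 1069 untreated (0.59), and Osm had 174 and 169 (0.04). On their brightest probe sets the receptors Il6st, Il6ra, Lifr and Osmr lay between −0.16 and 0.11. The other probe set of Il6ra differed by 1.72, and the lowest of Il6st by −0.57.

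**Figure D2:**
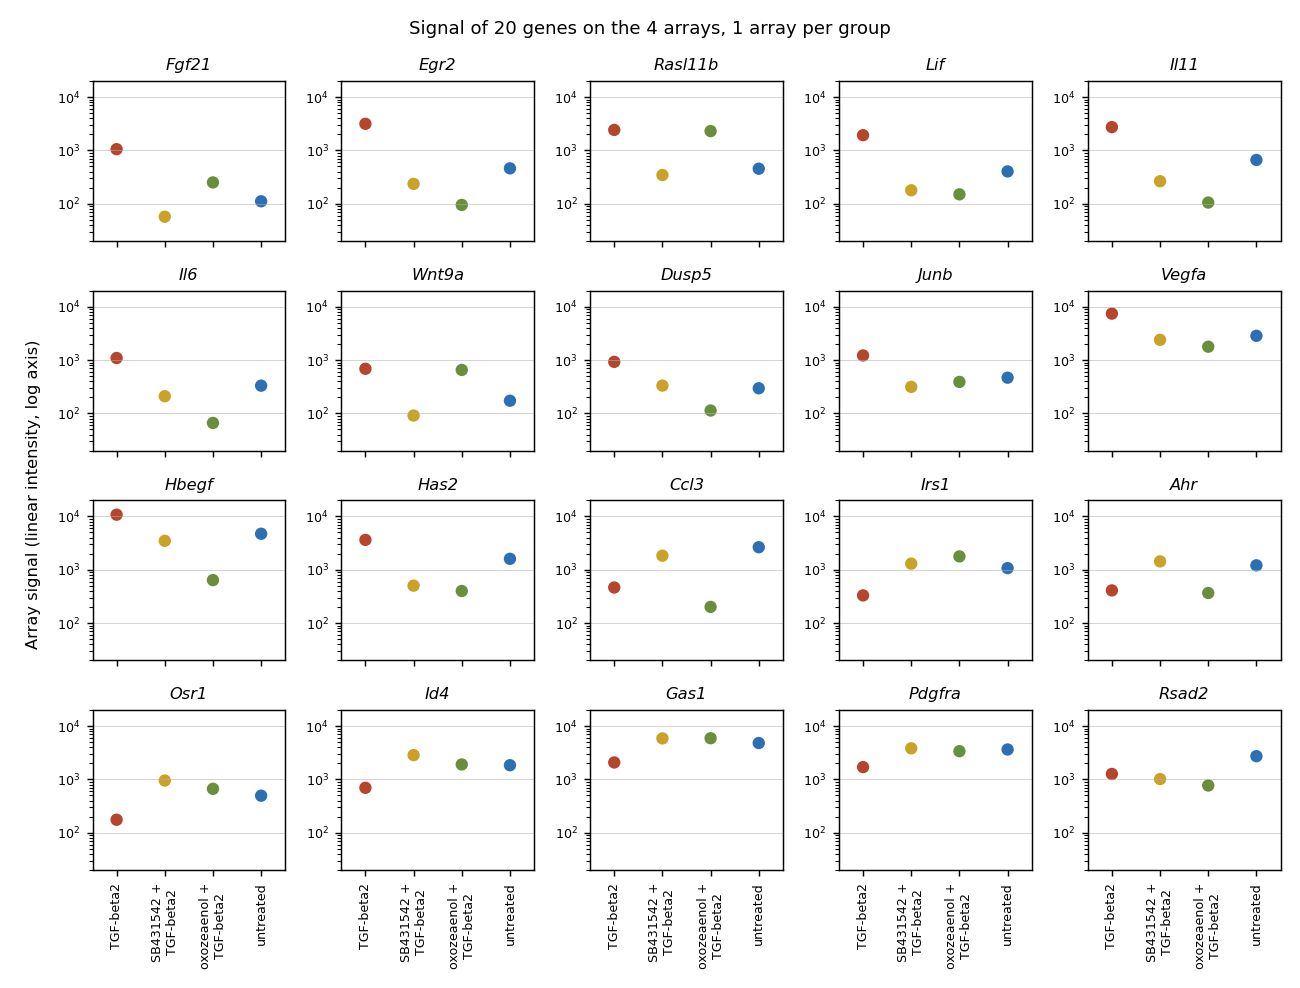
Linear signal (log axis) of 20 genes on the TGF-beta2, SB431542 with TGF-beta2, oxozeaenol with TGF-beta2 and untreated arrays, 1 point per array. Lif, Il11, Il6 and Egr2 are highest with TGF-beta2 alone, while Rasl11b and Wnt9a stay near the TGF-beta2 level with oxozeaenol. Osr1, Id4, Gas1 and Irs1 are lowest with TGF-beta2 alone, and Rsad2 is highest in untreated cells.

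Fgf21, a hormone of the fibroblast growth factor family, had the largest difference among brightest probe sets, with 1055 with TGF-beta2, 57.2 with SB431542, 251 with oxozeaenol and 111 untreated (3.02). Fgf21 is a known target of Atf4, the factor of the integrated stress response. It was the 1 gene of 28 in the Atf4 and ER stress list past 2-fold, and the list had a median of 0.01. In that list 15 genes lay above 0 and 13 below. Ddit3, the lowest of them, had 1634 with TGF-beta2 and 2600 untreated (−0.66), and Trib3 had 1453 and 1690 (−0.21). Atf4 itself had 11395 with TGF-beta2 and 10329 untreated (0.14). Whether Atf4 has a part in the Fgf21 difference was not tested. Fgf18, a growth factor of skeletal tissue, differed by 1.17, from a signal of 122 with TGF-beta2 and 42.2 untreated, which is under the filter level.

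Single growth factor ligands for other receptors passed 2-fold. The 6 PDGF ligands and receptors had a median of 0.52, and the 11 Wnt ligands had one of 0.36, with 8 of 11 above 0. Hbegf, a ligand of the EGF receptor, had 10779 with TGF-beta2 and 4733 untreated (1.18), and its other probe set, with 5038 and 2174, differed by 1.20. Vegfa, the vascular growth factor, had 7433 with TGF-beta2 and 2854 untreated (1.37), with its other probe set at 0.69. Both were the only members past 2-fold of 9 EGF-family and 9 Vegf and angiopoietin genes. In the platelet-derived growth factor family the ligand gene Pdgfb had 921 with TGF-beta2 and 409 untreated (1.13), with its other probe set at 0.31. Pdgfa had 4031 and 2421 (0.73), with its other probe set at 0.74. Pdgfc had 8473 and 4704 (0.85), but its other probe set differed by −0.03. The receptor gene Pdgfra had 1704 with TGF-beta2 and 3643 untreated (−1.09), but its other 2 probe sets differed by −0.06 and 0.07. Of the Wnt ligands, Wnt9a and Wnt11 were higher, and Wnt16 had 111 with TGF-beta2 and 45.8 untreated (0.98). Wnt9a had 687 with TGF-beta2, 91.3 with SB431542, 654 with oxozeaenol and 173 untreated (1.86), and Wnt11 had 275, 123, 88.1 and 110 in the same order (1.17). Wnt5a, with 3166 with TGF-beta2 and 2445 untreated, stayed at 0.37. Jag1, a Notch ligand, had 7117 with TGF-beta2 and 3056 untreated (1.21), whereas Hey1, a Notch and BMP target, had 194 and 420 (−1.03).

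The windows below are the 250 bases before the start site of genes these results turn on, from RefSeq on GRCm38.p6, read in the direction of the gene. They were chosen after the motif matches had been seen: Lif, Il11 and Il6 because all 3 ligands hold an AP-1 site, Egr2 and Dusp5 because they hold a CArG box, and Fgf21 because it holds an Atf4 composite site. Where a gene had several start sites, the window with most bases inside motifs is shown. Capitals mark the motif matches.
Lif, chr11:4257318-4257567, plus strand: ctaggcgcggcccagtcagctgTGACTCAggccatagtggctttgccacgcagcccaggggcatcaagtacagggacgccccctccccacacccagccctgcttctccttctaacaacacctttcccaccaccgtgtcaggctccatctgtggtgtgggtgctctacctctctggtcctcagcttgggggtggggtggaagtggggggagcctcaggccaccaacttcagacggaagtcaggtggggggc
Il11, chr7:4778142-4778391, minus strand: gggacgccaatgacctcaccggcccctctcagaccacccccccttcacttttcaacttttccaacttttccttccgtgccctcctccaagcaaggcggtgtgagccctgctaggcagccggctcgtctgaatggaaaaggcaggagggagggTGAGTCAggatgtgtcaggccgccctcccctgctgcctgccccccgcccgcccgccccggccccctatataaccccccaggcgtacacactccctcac
Il6, chr5:30012864-30013113, plus strand: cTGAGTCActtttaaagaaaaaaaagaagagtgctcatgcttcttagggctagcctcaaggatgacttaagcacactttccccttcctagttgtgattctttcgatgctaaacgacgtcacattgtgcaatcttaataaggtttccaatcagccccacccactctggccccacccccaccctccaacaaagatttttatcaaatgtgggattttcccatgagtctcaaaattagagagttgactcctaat
Egr2, chr10:67537316-67537565, plus strand: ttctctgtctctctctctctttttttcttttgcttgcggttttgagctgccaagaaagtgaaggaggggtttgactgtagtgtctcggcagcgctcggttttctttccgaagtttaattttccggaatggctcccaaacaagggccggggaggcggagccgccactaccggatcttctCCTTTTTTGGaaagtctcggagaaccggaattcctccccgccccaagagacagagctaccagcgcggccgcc
Dusp5, chr19:53528895-53529144, plus strand: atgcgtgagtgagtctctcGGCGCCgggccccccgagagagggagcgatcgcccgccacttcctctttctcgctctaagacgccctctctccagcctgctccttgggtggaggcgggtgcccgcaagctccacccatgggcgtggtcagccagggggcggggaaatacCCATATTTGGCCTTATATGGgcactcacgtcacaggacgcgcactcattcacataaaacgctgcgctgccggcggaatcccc
Fgf21, chr7:45615491-45615740, minus strand: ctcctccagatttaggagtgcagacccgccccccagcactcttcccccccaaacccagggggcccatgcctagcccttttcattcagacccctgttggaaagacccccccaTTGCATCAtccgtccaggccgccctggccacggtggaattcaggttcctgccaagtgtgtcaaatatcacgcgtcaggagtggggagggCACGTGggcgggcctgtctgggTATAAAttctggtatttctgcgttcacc
The capitals are TGANTCA (AP-1) in Lif, Il11 and Il6, and the CArG box, the serum response factor site, in Egr2 and Dusp5. Dusp5 also holds GGCGCC, a GC-rich Smad site. In Fgf21 they are TTGCATCA, the reverse complement of the Atf4 composite site TGATGCAA, then the E-box CACGTG and the TATA box TATAAA.

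Across genes, 56 of the 79 higher and 27 of the 43 lower genes had such a window, as had 9522 of all 11744. Genes with several start sites had several windows, 1.43 per higher gene, 1.07 per lower gene and 1.28 over all. Motifs were searched on both strands, and matches of different motifs may overlap. TGANTCA was held by 6 of 56 higher genes (10.7%), 3 of 27 lower genes (11.1%) and 5.76% of all genes. TATAAA was held by 21.4% of higher genes, 22.2% of lower genes and 8.22% of all. TGATGCAA was held by 2 higher genes, no lower gene and 0.662% of all, and the CArG box by 2, none and 1.39%. GGCGCC was held by 26.8% of higher genes, 14.8% of lower genes and 19.8% of all. The shares for the cAMP response element TGACGTCA were 5.36%, 7.41% and 3.06% in the same order, for the Egr site GCGNGGGCG 7.14%, 11.1% and 10.6%, and for CACGTG 16.1%, 11.1% and 10%. The Smad palindrome GTCTAGAC, the ETS site CCGGAAGT and the Stat site TTCCNGGAA were in no window of either set and in 0.242%, 6.6% and 1.23% of all genes. A match is a description of these letters, and binding was not measured.

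Probe sets of the same gene give the one repeat these arrays hold, though they read the same RNA and are no replicate of the culture. Of 5121 genes with at least 2 kept probe sets, 38 (0.742%) had every one at least 1.5-fold higher and 15 (0.293%) every one at least 1.5-fold lower. Spsb1, which directs ubiquitination of signalling proteins, had 5467 with TGF-beta2, 1096 with SB431542, 2777 with oxozeaenol and 2117 untreated (1.36), and its other probe sets had 595 and 202 with TGF-beta2, against 196 and 98.0 untreated. Runx1, a transcription factor of blood and skeletal tissue, had 4360 with TGF-beta2, 979 with SB431542, 2249 with oxozeaenol and 1846 untreated (1.23). Of its 6 probe sets, 5 lay above 0.4 and the dimmest, under 70 on both arrays, at −0.07. Rflnb, an actin regulator also called refilin B, lay between 0.68 and 1.44 over 3 probe sets, and Fbxo32, a muscle ubiquitin ligase gene, between 0.68 and 1.46. Both had their smallest difference on their brightest probe set. Nfatc1, a calcium-regulated transcription factor, had 5 probe sets between 0.27 and 1.73, with 1622 against 804 untreated on the brightest (0.99). Rnf19b, a ubiquitin ligase gene, had 2091 with TGF-beta2 and 648 untreated (1.66), with 1.03 on its other probe set.

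**Figure D3:**
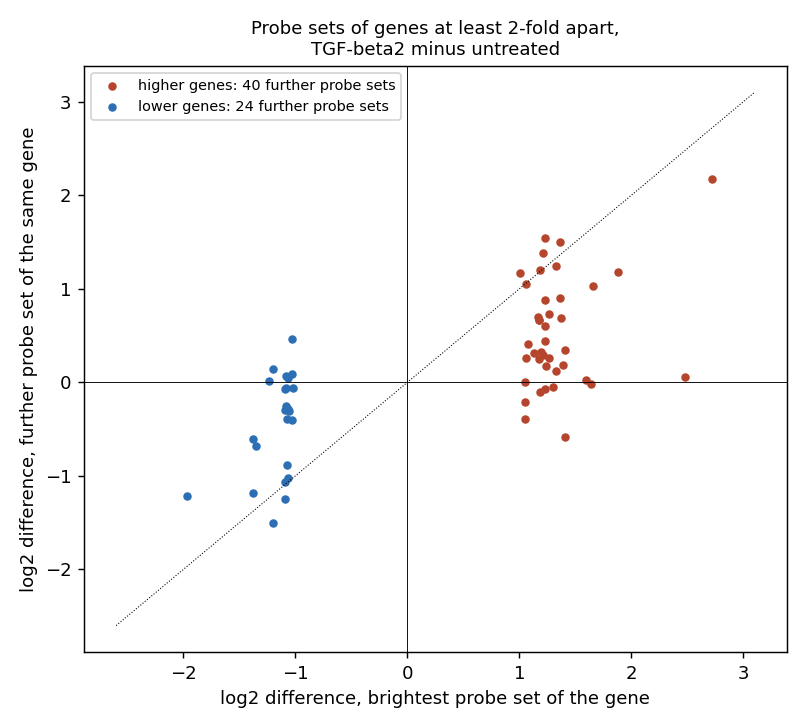
Log2 difference of the brightest probe set (horizontal axis) against each further kept probe set of the same gene (vertical axis), TGF-beta2 minus untreated, for genes at least 2-fold apart. The dotted line marks equal differences. Of 40 further probe sets of higher genes (red), 33 lie above 0, and of 24 of lower genes (blue), 18 lie below 0, most of them closer to 0 than the brightest.

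Where probe sets of a gene went apart, the call rests on 1 of them. Psmc4, a proteasome subunit gene, had 8353 with TGF-beta2 and 1477 untreated on its brightest probe set (2.48), while its other probe set, with 3376 and 3240, differed by 0.06. On the brightest, the SB431542 and oxozeaenol arrays had 7567 and 7909, so the untreated array was the low one. Lats2, a Hippo pathway kinase gene, differed by 1.05 on a probe set that may match several transcripts, and its other probe sets read 0.00, −0.21 and −0.39. Over all genes with several probe sets, the brightest 2 differed from each other by a median of 0.19, and in 1.56% by 1 or more.

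Genes of the extracellular matrix and the contractile apparatus, which TGF-beta induces in many cells, lay near 0 at this time. None of 18 collagen genes, 23 matrix glycoprotein and crosslinking genes or 19 actin and contractile genes passed 2-fold on its brightest probe set, and their medians were 0.11, 0.10 and 0.09. Fmod, a collagen-binding proteoglycan gene, differed by 0.20 on the brightest of its 6 probe sets, while another differed by 3.40. Col1a1 had 12926 with TGF-beta2 and 10690 untreated (0.27), and Acta2, smooth muscle actin, had 18696 and 18162 (0.04). Has2, which makes hyaluronan, the bulky sugar of the palatal shelf matrix, was the 1 of 8 hyaluronan genes past 2-fold, with 3631 with TGF-beta2, 503 with SB431542, 400 with oxozeaenol and 1606 untreated (1.17). Its other probe set differed by 0.70, and the median over both was 0.93, under 2-fold. Itgb3, an integrin subunit, had 844 with TGF-beta2 and 381 untreated (1.10). Ccn1 and Ccn2, secreted targets of YAP, differed by 0.51 and 0.19. Rasl11b, a small GTPase gene, had 2424 with TGF-beta2, 345 with SB431542, 2302 with oxozeaenol and 454 untreated (2.36).

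Most targets of BMP signalling lay below 0, and Id4 was the farthest. Of 11 measured, 9 were below 0, with a median of −0.35, and 2 passed 2-fold, Id4 and Hey1. Id4, an inhibitor of helix-loop-helix factors, had 697 with TGF-beta2, 2859 with SB431542, 1909 with oxozeaenol and 1848 untreated (−1.38), and its other probe sets differed by −0.60 and −1.18. Its relatives Id1 and Id3 had 2905 and 4935 with TGF-beta2, against 4944 and 8378 untreated (−0.76 each), and Id2 differed by −0.03. Atoh8, a BMP-induced factor, had 185 with TGF-beta2 and 373 untreated (−0.94). Bmp4, the ligand, was just short of 2-fold, with 109 with TGF-beta2, 317 with SB431542, 470 with oxozeaenol and 239 untreated.

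Transcription factors and signalling genes that shape the palate leaned the same way. Of 30 palatal regulators, 23 were measured and 7 were not. Of the 23, 17 were below 0, 3 were lower by 2-fold or more and none was higher. Their median was −0.16, beside −0.03 over all genes. Osr1 had 176 with TGF-beta2, 953 with SB431542, 667 with oxozeaenol and 496 untreated (−1.39). Gas1, a Hedgehog co-receptor, had 2082 with TGF-beta2, 5887 with SB431542, 5925 with oxozeaenol and 4820 untreated (−1.20), with 885 against 2547 untreated on a further probe set and a difference of 0.14 on a dim one. Alx1 differed by −1.23 on 1 probe set and 0.01 on the other. Shox2 had 842 with TGF-beta2 and 1487 untreated (−0.80), with its other probe set at −0.93. Foxf2 and Mn1 lay on the other side, at 0.59 and 0.53. On their brightest probe sets all 6 Snail, Twist and Zeb repressors lay below 0, with a median of −0.45. Probe sets of Zeb1 ran from −0.21 to 0.33, and those of Zeb2 from −0.58 to 0.59. Twist1 had 705 with TGF-beta2 and 1147 untreated (−0.69). Snai2, with 3238 with TGF-beta2 and 6599 untreated, differed by −1.02 on a probe set that may match several transcripts and by −0.06 on the other.

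**Figure D4:**
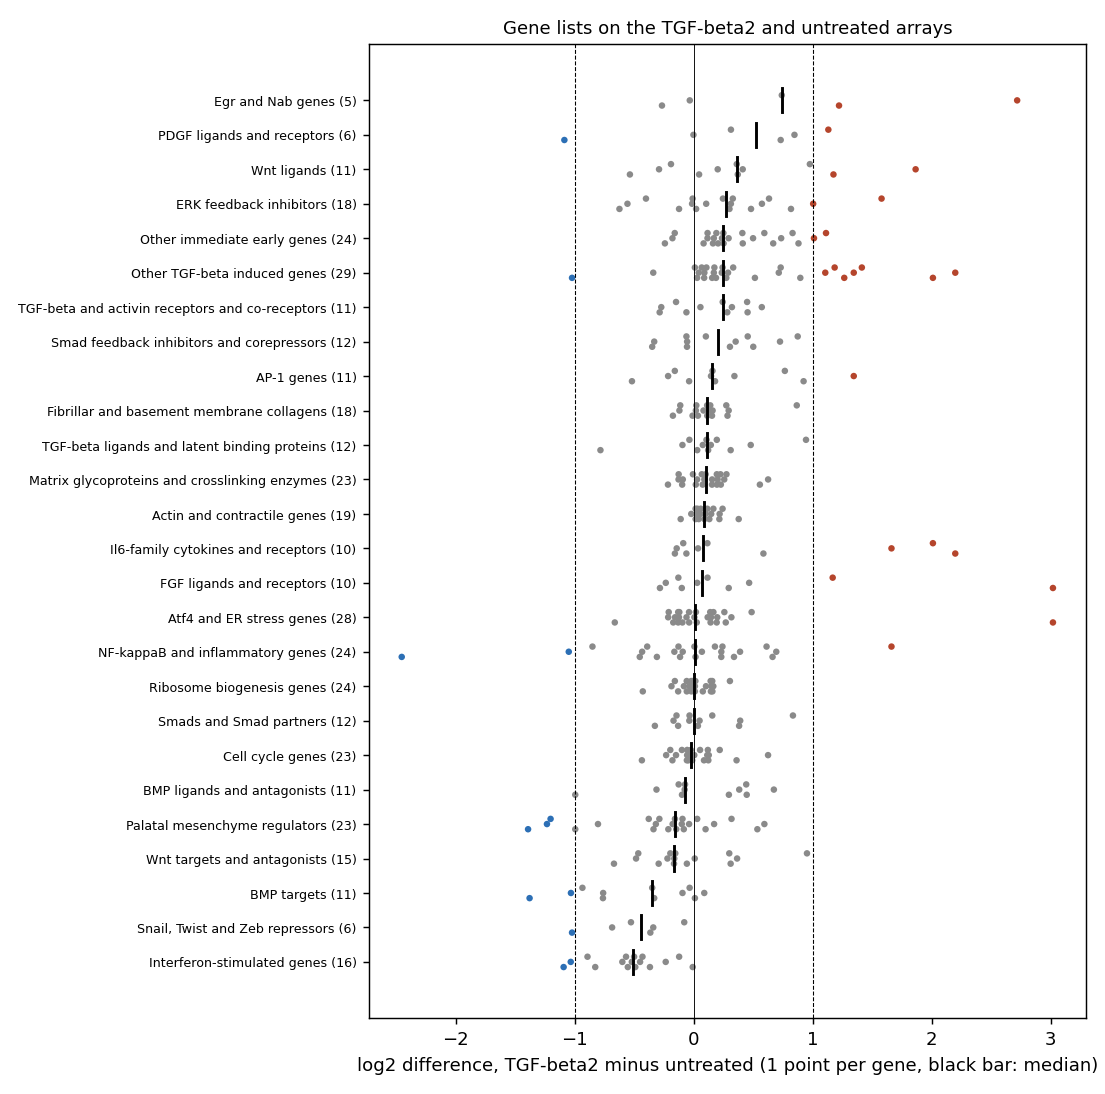
Log2 difference, TGF-beta2 minus untreated, of each measured gene in 26 lists, with the number of genes in brackets and the median as a black bar. Dashed lines mark 2-fold, and red and blue points lie past it. The list of Egr and Nab genes has the highest median of these lists (0.74), while interferon-stimulated genes and Snail, Twist and Zeb genes all lie at or below 0.

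Among the lower genes outside development, the chemokine genes Ccl3 and Ccl4 stood out. Ccl3 had 466 with TGF-beta2, 1838 with SB431542, 201 with oxozeaenol and 2646 untreated (−2.45), and Ccl4 had 760, 1801, 194 and 1597 in the same order (−1.05). Both are made chiefly by macrophages. The 10 macrophage and blood markers past the filter had a summed signal of 58233 with TGF-beta2 and 61913 untreated, and 9 of them lay below 0 with a median of −0.17 and a range of −0.29 to 0.02. Hbb-bh1 and Hba-x, globin genes of primitive blood, were under the filter. Fewer cells of a type and less RNA per cell cannot be told apart in bulk RNA, and the part of macrophages in the chemokine difference was not tested. The chemokine Ccl2 had 4180 with TGF-beta2 and 5185 untreated (−0.31), and the median over 24 NF-kappaB and inflammatory genes was 0.01, or −0.31 with the filter at the 75th percentile.

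All 16 interferon-stimulated genes lay below 0, with a median of −0.51, and 2 passed 2-fold. Rsad2, an antiviral enzyme, had 1268 with TGF-beta2, 1016 with SB431542, 770 with oxozeaenol and 2730 untreated (−1.09), and all 3 of its probe sets passed 2-fold. Ifit3 had 460 with TGF-beta2, 335 with SB431542, 376 with oxozeaenol and 965 untreated (−1.03). For both, the untreated array was the highest of the 4. The macrophage markers given above lay below 0 as well, by less, and their part here was not tested.

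Further increases past 2-fold were single genes of various roles. Eva1a, a regulator of autophagy, had 829 with TGF-beta2 and 290 untreated (1.45). Sphk1, a sphingosine kinase gene, had 1928 with TGF-beta2 and 790 untreated (1.26), with its other probe set at 0.73. Ch25h, a cholesterol hydroxylase gene, had 2939 with TGF-beta2, 2379 with SB431542, 184 with oxozeaenol and 1309 untreated (1.15), so the SB431542 array stayed above the untreated one. Some of the top differences came from dim probe sets. Klk7, Magea7-ps, Asprv1, Cep126, 1810064F22Rik, Slc4a8, Sigirr and Wdr60 had 87.1 to 134 with TGF-beta2, against 5.96 to 28.0 untreated. Dus2, Nxpe3, Ifit1bl1, Cdh3, Mm2pr, Col4a3, Slitrk6, H2-Eb2 and Poll had 21.2 to 54.7 with TGF-beta2, against 99.4 to 238 untreated. Their sizes would be others with another pseudocount, since 1 side lies under the filter level. In each of the dim higher genes the untreated array was the lowest of the series, and in each of the dim lower ones the TGF-beta2 array was. Klk7 had 122 with SB431542 and 172 with oxozeaenol, Asprv1 had 15.8 and 557, and Nxpe3 had 140 and 155.

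Single genes of metabolism and hormone response were lower too. Irs1, the adaptor of insulin receptors, had 331 with TGF-beta2, 1303 with SB431542, 1781 with oxozeaenol and 1073 untreated (−1.63), the 1 of 16 insulin and IGF genes past 2-fold. Ahr, the aryl hydrocarbon receptor, had 410 with TGF-beta2, 1435 with SB431542, 367 with oxozeaenol and 1210 untreated (−1.51), and its target Cyp1b1 had 2062 with TGF-beta2 and 3166 untreated (−0.61). Slc40a1, the iron exporter, had 827 with TGF-beta2 and 2145 untreated (−1.35), with its other probe set at −0.69. Maf, a transcription factor, lay between −0.75 and −0.48 over 5 probe sets.

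Lists of cell state showed no gene past 2-fold. These were 23 cell cycle genes (median −0.02), 24 ribosome biogenesis genes (0.00), 12 Nrf2 targets (0.02), 15 p53 targets (−0.03) and 13 heat shock genes (−0.03). Among 21 hypoxia and glycolysis genes Vegfa was the 1 past 2-fold, and the median was −0.03.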

How the data were processed

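RNA of cultured cells was hybridised to 4 Affymetrix 3′ expression arrays, 1 per group, per the labels' protocols. The deposited values are linear intensities per probe set, made by the authors with GCOS, per the submitters' processing notes. Neither a version nor an algorithm is given in the sources used here. The mean intensity of every array, leaving out the lowest and highest 2% of probe sets, was 500, so the arrays were scaled to a common level before deposit, which assumes equal average transcript levels. From these, 64 control probe sets were left out. Symbols came from the platform annotation, which gave 1 symbol for 34945 probe sets, several for 932 and none for 9160, updated through RefSeq gene IDs. Of the 10092 without a single symbol, 2455 passed the filter, 21 of them 2-fold higher and 10 lower.

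Intensities were converted to log2(value + 21.7), the pseudocount being the 25th percentile of all values, which understates differences of dim genes. Probe sets whose mean over the 4 arrays reached the median were kept, and the brightest stood for its gene. With 1 array per group no test was possible, and the number of arrays limits precision. The 51 gene lists, 6 marker lists and the rule for named genes were chosen with earlier results of these data known. The rule took the 25 top increases and 15 top decreases past 2-fold whose probe sets shared a direction, and list members past 2-fold. It also took the 10 largest differences each way among bright genes, genes with several probe sets past 2-fold, and all ligands, receptors and Smads. Up to 4 members per list could be described beside these, whatever their value. Not every gene that the rule took is described. Counting was tested on simulated data with the same noise at every level and changes set only in brighter genes. That simulation does not gauge calls among dim genes, whose differences spread more widely here. Alternatives covered pseudocount, filter, scaling and the choice of probe set. Python 3.11.15, numpy 2.4.6, pandas 2.3.3, statsmodels 0.14.6 and matplotlib 3.10.9 were used.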

Additional observations from a re-analysis of the deposited data

How the results depend on the processing

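No paired analysis was possible because each group held 1 array, and for the same reason no replicate could be left out. The 79 higher and 43 lower genes became 50 and 21 when the median of all values was the pseudocount, 350 and 278 with no filter, and 30 and 17 with the filter at the 75th percentile. By construction these settings shrink differences of dim genes, admit dim genes or remove them. With settings added after seeing the data, the counts were 354 and 289 at 1.5-fold, and 55 and 27 where both arrays had to reach the filter level. Single-symbol probe sets with no filter, 795 higher and 579 lower, became 2221 and 1682 when the pseudocount was the 10th percentile and 108 and 43 when it was the median. Quantile normalization, median centring and loess gave 78 to 84 higher and 40 to 42 lower genes. Of 70 genes past 2-fold that the rule for named genes took, 46 stayed past it under every alternative in which they were measured. Sphk1, Wnt11, Hey1, Ifit3, Fgf18 and Pdgfb were among those that did not. Lats2 changed sign, to −0.10 with the median over probe sets. Pdgfra read −0.06 under that setting and Runx1 0.74, and Snai2 read −0.06 without probe sets that may match several transcripts. The medians of 4 lists changed sign under a scaling, among them the Atf4 and ER stress list and the mesenchymal markers. Signals near the filter level limit what can be read of the dim genes.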

Other observations

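Some genes not described so far had every probe set past 1.5-fold. Slc20a1, a phosphate transporter, had 10253 with TGF-beta2 and 5890 untreated on its brightest probe set (0.80), with its other at 1.05. Creb3l2, a membrane-bound transcription factor of the secretory pathway, had 2782 with TGF-beta2 and 1411 untreated (0.97), with 1.10 on its other probe set. Ptgs2, the inducible prostaglandin synthase, had 15586 with TGF-beta2 and 9842 untreated (0.66), with 1.14 on its other probe set. Sox9, the regulator of cartilage, had 631 with TGF-beta2 and 389 untreated (0.67), with its other at 0.61. On the lower side Txnip, a regulator of glucose uptake, had 2685 with TGF-beta2 and 4157 untreated (−0.63), with −1.04 on its other probe set. These genes were chosen after their values were seen, and they have no replicate check.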
